A study of Homo sapiens with 12 samples.

Results

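The unfolded protein response and the integrated stress response were followed through 10 genes: ATF4, DDIT3, DDIT4, PPP1R15A, HSPA5, SDF2L1, XBP1, HERPUD1, TRIB3 and ASNS. All probes annotated to these symbols were taken from the raw signal table. This gave 13 of the 47320 probes on the array, for 9 of the 10 genes: ATF4 had 3 probes, XBP1 and ASNS had 2 each, and the other 6 had 1 each. No probe was annotated to HERPUD1, and its level is not analysed here. The array's annotation named 20045 genes in all. RNA came from 2 human cell lines, THP-1, a line of monocytic leukemia cells, and BEAS-2B, immortalized epithelial cells of the human bronchus. Both were starved of serum overnight and then kept in medium alone or given an extract of poultry dust for 1 or 3 h, at 0.1% for THP-1 and 0.25% for BEAS-2B. Each of the 6 groups had 2 arrays (n = 2 for every group value), numbered 1 and 2 in the labels, which do not say whether these were separate cultures, so the p-values measure the spread between arrays, which may be technical. The labels do not give the time the medium groups were kept, and dose and line differed together.

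Cells sense unfolded proteins in the endoplasmic reticulum (ER) through the membrane proteins PERK, IRE1 and ATF6. PERK and other kinases phosphorylate the translation factor eIF2, which slows protein synthesis while the mRNA of ATF4 is translated more. ATF4 then induces genes of amino acid supply and the regulators DDIT3 (CHOP), TRIB3 and PPP1R15A (GADD34). IRE1 splices the mRNA of XBP1, and XBP1 and ATF6 induce ER chaperones such as HSPA5 (BiP). ATF4 is largely controlled at translation and XBP1 at splicing, so the level of mRNA measured here is not a measure of the activity of either protein. Levels below are log2 intensities after background correction and quantile normalization. In RNA from whole cultures, fewer responding cells and less RNA per cell cannot be told apart. Each level belongs to its own probe and is compared between groups only, not between genes.

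The labels name A459 as the source of the THP-1 samples, so the lines were checked on marker genes. Of 13 monocyte markers with a probe, 12 were well above background (detection p under 0.01) on both THP-1 medium arrays and 2 on both BEAS-2B medium arrays. In medium, 11 of the 12 monocyte markers tested were lower in BEAS-2B than in THP-1, while CD14 did not pass (-0.20 log2, limma, adjusted p = 0.33). All 11 epithelial markers with a probe were well above background on both BEAS-2B medium arrays and 1, LAMB3, on both THP-1 medium arrays. In THP-1 at 3 h LAMB3 was the 1 epithelial marker that rose, by 1.08 log2 (limma, adjusted p = 0.013). The summed level of the 11 epithelial markers lay between 8.26 and 8.79 log2 on the 6 THP-1 arrays and between 14.40 and 14.64 log2 on the 6 BEAS-2B arrays. Of 6 markers of A549, a lung carcinoma line whose name is close to that label, 2 were well above background on both THP-1 medium arrays (ALDH1A1 and AKR1C2) and 3 on both BEAS-2B medium arrays. In THP-1 at 3 h ALDH1A1 rose by 1.65 log2 (limma, adjusted p = 0.000412) and AKR1C2 by 1.04 log2 (adjusted p = 0.0323). CPS1 and UCHL1 changed there by -0.20 log2 (adjusted p = 0.233) and -0.15 log2 (adjusted p = 0.523). Neither of them was well above background on any THP-1 array, and AKR1B10 was so on no array of either line. The summed level of the 4 A549 markers kept for the tests lay between 8.44 and 9.27 log2 at 3 h, against 7.64 to 8.09 log2 on the other THP-1 arrays. The part of this in the member changes was not tested. Between 14977 and 17045 probes per array were well above background. The arrays of THP-1 after 3 h of dust had the lowest 75th percentiles of raw signal, 126 and 127 against 144 to 181 elsewhere. When arrays were scaled by their median in place of quantile normalization, the median log2 change over all genes in THP-1 at 3 h went from -0.05 to -0.30, and member calls that turned on this are named beside their values.

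All 13 member probes were well above background on all 12 arrays. Against medium, 1 of the 9 measured members rose in THP-1 at 1 h, where 1.26% of the 15489 genes and unnamed probes tested rose. At 3 h in THP-1, 7 of 9 rose, beside 19.1% of all tested. In BEAS-2B, 2 of 9 rose at 1 h, beside 1.1%, and 3 of 9 rose at 3 h, beside 3.26%. No member fell in these 4 comparisons, where 0.387%, 26.5%, 0.0775% and 2.21% of all tested fell, in the same order. Under median scaling SDF2L1 and ASNS no longer rose in THP-1 at 3 h, and DDIT3 fell there. Both dust arrays lay above both medium arrays for 5 of 9 members in THP-1 at 1 h and 7 of 9 at 3 h, beside 15.9% and 29.8% of all tested, and for 5 and 8 of 9 in BEAS-2B, beside 16.3% and 23.8%. A gene was said to rise or fall at an adjusted p under 0.05 (limma, Benjamini-Hochberg over all 15489). The median log2 change of the 9 members was 0.32 and 0.74 in THP-1 at 1 and 3 h, where that of all tested was -0.03 and -0.05. It was 0.20 and 0.70 in BEAS-2B, where that of all tested was -0.04 at both times. The 2 times share the medium arrays of their line. The members were chosen with earlier results of these data known, so their shares beside those of all tested are a description.

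**Figure D1:**
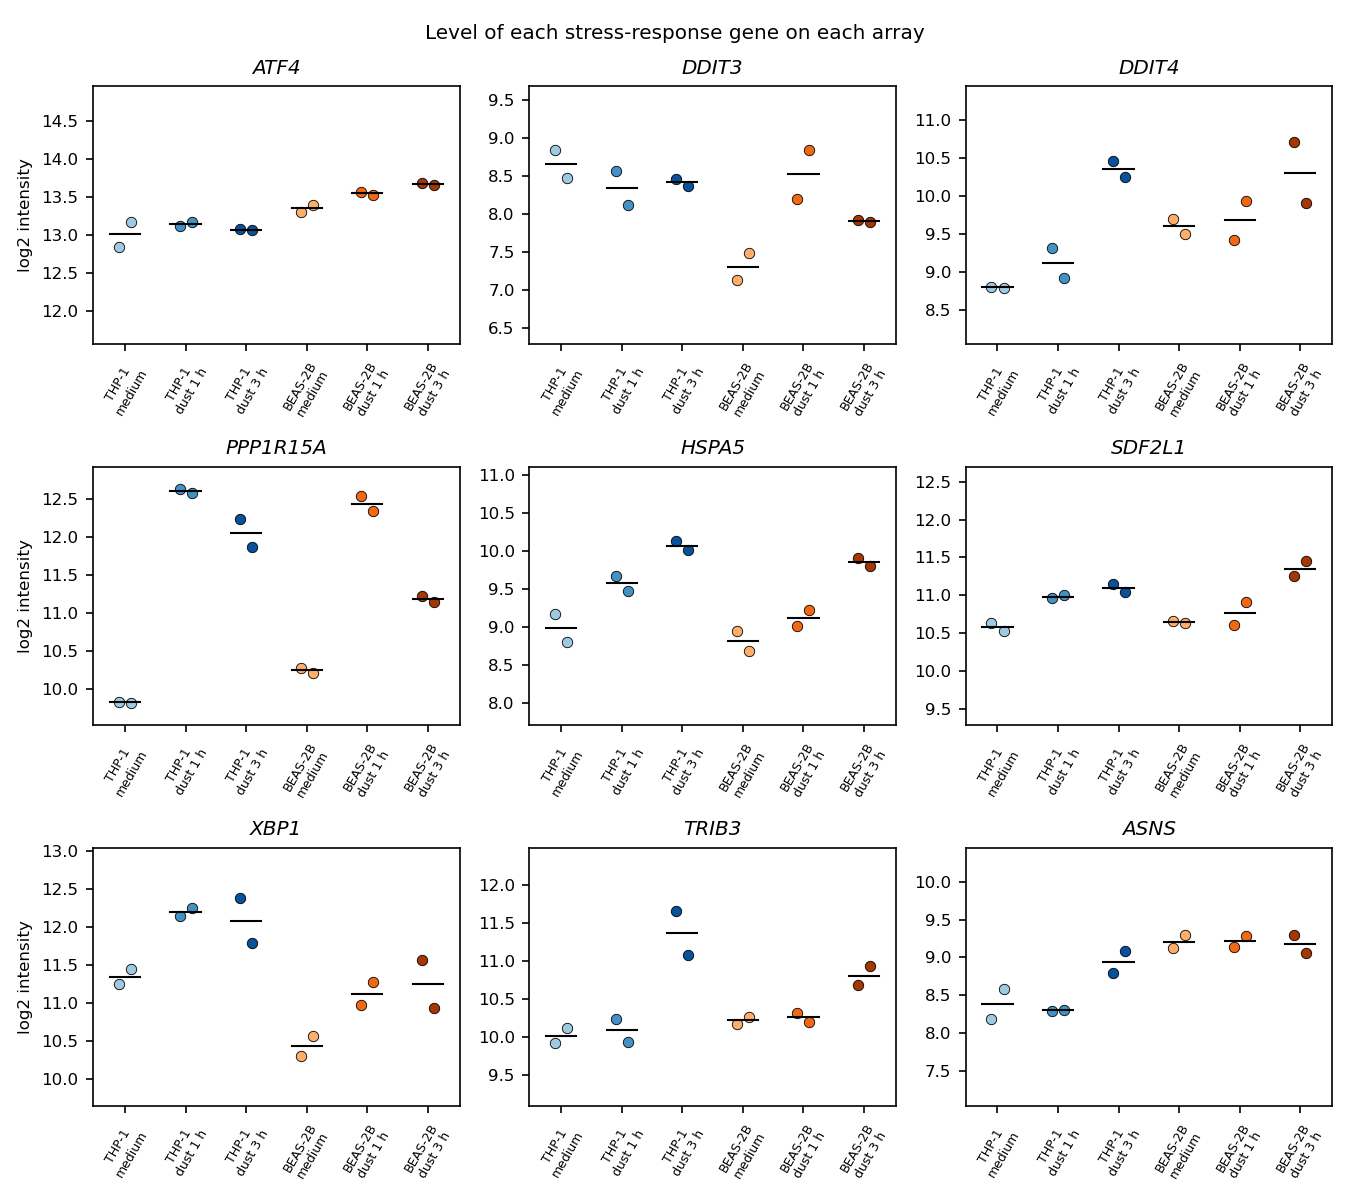
Level (log2 intensity) of the 9 measured genes on each of the 12 arrays; points are arrays, black lines group means, and every panel spans the same log2 range. PPP1R15A was highest at 1 h in both lines, at 12.60 and 12.44, while HSPA5 was highest at 3 h, at 10.07 and 9.86.

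PPP1R15A, which brings protein phosphatase 1 to eIF2 and so restores translation, had the largest log2 change of the 9 members in 3 of the 4 comparisons with medium, all but BEAS-2B at 3 h. Its level was 9.83 and 9.82 on the THP-1 medium arrays, 12.63 and 12.58 after 1 h, and 12.24 and 11.88 after 3 h. In BEAS-2B it was 10.28 and 10.21 in medium, 12.54 and 12.34 after 1 h, and 11.22 and 11.15 after 3 h. Every dust array lay above every medium array of both lines. The rise was 6.86-fold in THP-1 at 1 h (log2 change 2.78 ± 0.15 SE, adjusted p = 2.95e-06) and 4.70-fold at 3 h (2.23 ± 0.15, adjusted p = 1.51e-06). In BEAS-2B it was 4.58-fold at 1 h (2.19 ± 0.15, adjusted p = 9.26e-05) and 1.92-fold at 3 h (0.94 ± 0.15, adjusted p = 0.00552). The last call ended without either BEAS-2B medium array (adjusted p up to 0.059), and the other 3 held without any single array of the 12. The order of the group means ran from THP-1 1 h through BEAS-2B 1 h, THP-1 3 h, BEAS-2B 3 h and BEAS-2B medium to THP-1 medium, and no neighbours in it overlapped.

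ATF4, the transcription factor at the centre of the integrated stress response, changed little on its brightest probe. That probe, ILMN_1672128, read 12.85 and 13.17 in THP-1 medium, 13.11 and 13.18 after 1 h, and 13.08 and 13.06 after 3 h. Levels in BEAS-2B were 13.31 and 13.40 in medium, 13.57 and 13.53 after 1 h, and 13.68 and 13.67 after 3 h. Both THP-1 dust groups overlapped with medium, whereas both BEAS-2B dust groups lay above their medium arrays. No change against medium passed the test. The log2 changes in THP-1 were 0.14 ± 0.14 at 1 h (adjusted p = 0.799) and 0.06 ± 0.14 at 3 h (adjusted p = 0.749). In BEAS-2B they were 0.20 ± 0.14 at 1 h (adjusted p = 0.998) and 0.32 ± 0.14 at 3 h (adjusted p = 0.213).

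The 3 ATF4 probes disagreed in THP-1 at 3 h. ILMN_2358457 read 9.46 and 9.17 in THP-1 medium, 9.59 and 9.63 after 1 h, and 10.14 and 10.02 after 3 h, so that both 3 h arrays lay above both medium arrays. In a fit of every probe on its own it rose by 0.76 ± 0.16 log2 at 3 h (adjusted p = 0.00245), against 0.06 ± 0.14 for the brightest probe. The annotation ties it to transcript NM_182810 and the other 2 probes to NM_001675. The dimmest probe, ILMN_1783394, changed by 0.33 ± 0.26 log2 there (adjusted p = 0.327). With the mean of the 3 probes ATF4 rose in THP-1 at 3 h by 0.39 log2 (adjusted p = 0.0364). In BEAS-2B at 3 h the 3 probes gave 0.32, 0.29 and -0.16 log2, and none passed.

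**Figure D2:**
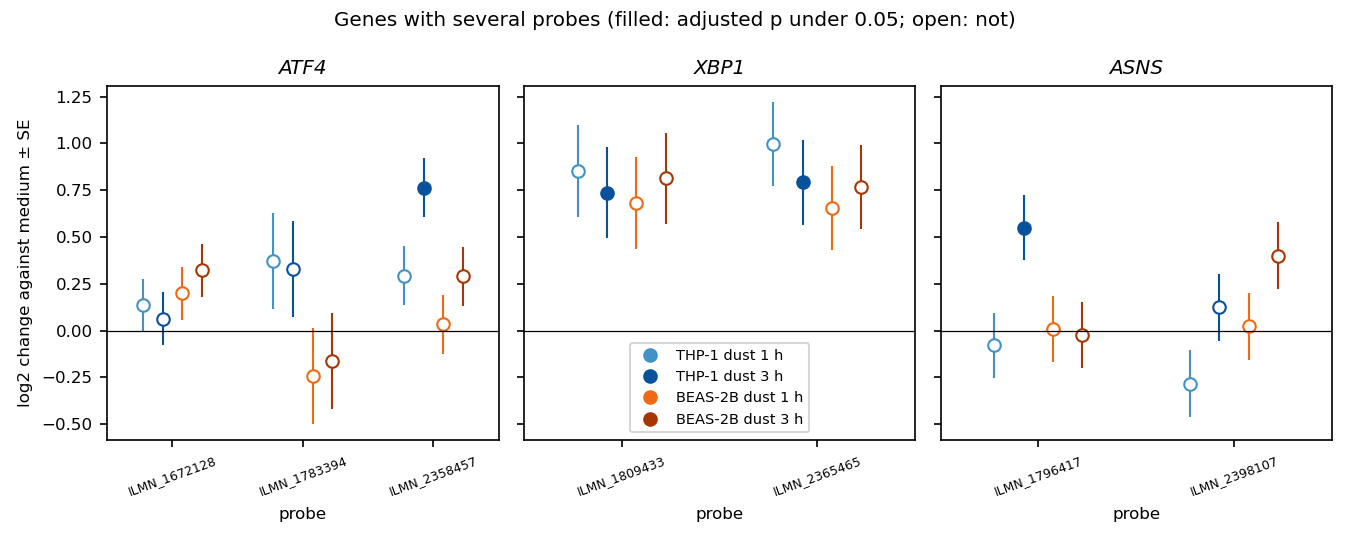
Log2 change against medium ± SE (n = 2 arrays a group) for each probe of ATF4, XBP1 and ASNS, fitted probe by probe; filled points had an adjusted p under 0.05. In THP-1 at 3 h ILMN_2358457 of ATF4 stood at 0.76 and ILMN_1672128 at 0.06, while both XBP1 probes gave like values, 0.74 and 0.79.

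DDIT3, the transcription factor CHOP, known from prolonged ER stress, had fitted changes of opposite sign in the 2 lines, of which 1 passed the test. It read 8.85 and 8.48 in THP-1 medium, 8.57 and 8.12 after 1 h, and 8.47 and 8.37 after 3 h. BEAS-2B arrays stood at 7.13 and 7.48 in medium, 8.20 and 8.85 after 1 h, and 7.92 and 7.90 after 3 h. All BEAS-2B dust arrays lay above the medium arrays, while in THP-1 the 1 h arrays overlapped with medium and the 3 h arrays lay just below it. In BEAS-2B at 1 h DDIT3 rose 2.33-fold (1.22 ± 0.24, adjusted p = 0.0372). That call ended in 7 of the 12 fits with 1 array left out, those without either THP-1 medium array, either THP-1 3 h array, either BEAS-2B medium array or BEAS-2B 1 h replicate 2, with adjusted p up to 0.415. At 3 h the change was 0.60 ± 0.24 log2 (adjusted p = 0.177). In THP-1 it was -0.32 ± 0.24 at 1 h (adjusted p = 0.682) and -0.24 ± 0.24 at 3 h (adjusted p = 0.439). Under median scaling the THP-1 value at 3 h passed, as a fall by 0.71 log2 (adjusted p = 0.0242).

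TRIB3, a pseudokinase induced through ATF4 and DDIT3 that restrains AKT signalling, rose late. It read 9.91 and 10.11 in THP-1 medium, 10.23 and 9.93 after 1 h, and 11.65 and 11.08 after 3 h. For BEAS-2B the levels were 10.17 and 10.26 in medium, 10.31 and 10.20 after 1 h, and 10.68 and 10.93 after 3 h. Arrays at 1 h overlapped with medium in both lines, and the 3 h arrays lay above it in both. The rise in THP-1 at 3 h was 2.55-fold (1.35 ± 0.20, adjusted p = 0.000304), a call that held without any single array. In BEAS-2B at 3 h the change was 0.58 ± 0.20 log2 and did not pass (adjusted p = 0.123). Of 10 other settings it passed there in 1, with the lines normalized and fitted separately (adjusted p = 0.0457), and the adjusted p ranged up to 0.207.

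DDIT4 (REDD1), which inhibits the growth kinase complex mTORC1, followed a like course in THP-1. It read 8.80 and 8.79 in THP-1 medium, 9.31 and 8.92 after 1 h, and 10.45 and 10.24 after 3 h. Levels in BEAS-2B were 9.70 and 9.49 in medium, 9.42 and 9.93 after 1 h, and 10.70 and 9.90 after 3 h. In BEAS-2B at 3 h replicate 1 had a raw signal of 1882 ± 67.5 and replicate 2 of 1131 ± 53.2 (standard error over 20 and 18 beads). DDIT4 in THP-1 at 3 h rose 2.94-fold (1.55 ± 0.26, adjusted p = 0.000725), a call that held without any single array. The change in BEAS-2B at 3 h was 0.71 ± 0.26 log2 (adjusted p = 0.152). It was 1.11 log2 without replicate 2 of that group and 0.31 log2 without replicate 1. At 1 h it was 0.32 ± 0.26 log2 in THP-1 (adjusted p = 0.732) and 0.08 ± 0.26 in BEAS-2B (adjusted p = 0.998).

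ASNS, the enzyme that makes asparagine and a target of ATF4, rose in THP-1 at 3 h and passed in no other comparison with medium. Its brighter probe, ILMN_1796417, read 8.18 and 8.59 in THP-1 medium, 8.30 and 8.31 after 1 h, and 8.79 and 9.08 after 3 h. BEAS-2B arrays stood at 9.12 and 9.30 in medium, 9.14 and 9.29 after 1 h, and 9.30 and 9.06 after 3 h. All 3 BEAS-2B groups overlapped with each other, and only the THP-1 3 h arrays lay above their medium arrays. There ASNS rose 1.46-fold (0.55 ± 0.17, adjusted p = 0.0246), while its raw signal was 349 and 427 after 3 h against 355 and 435 in medium. That call ended without THP-1 medium replicate 1 or 3 h replicate 2 (adjusted p up to 0.167), under median scaling, where the change was 0.10 log2 (adjusted p = 0.72), and with each line fitted on its own (adjusted p = 0.0604). The dimmer probe, ILMN_2398107, gave 0.12 ± 0.18 log2 for the same comparison (adjusted p = 0.613), and the mean of both probes 0.34 log2 (adjusted p = 0.117). At 3 h in BEAS-2B the probes differed the other way, with 0.40 ± 0.18 log2 on the dimmer (adjusted p = 0.235) and -0.02 ± 0.18 on the brighter (adjusted p = 0.964).

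The sequence upstream of a start site is shown for the measured members in which a searched element matched. HSPA5, SDF2L1 and XBP1 hold a binding element of the ER stress response there, and ASNS holds the composite element described below. The elements searched, on both strands of the 300 bases around each start site (250 before it and 50 after) in RefSeq promoters of build GRCh38.p14, were the ER stress response element (CCAAT and CCACG with 9 bases between them) and its second form (ATTGG and CCACG with 1 base between them), which ATF6 and XBP1 are known to bind, and the composite element TGATGNAA of C/EBP and ATF4. Of 35116 such promoters, 0.0769%, 0.0541% and 3.62% held them. All 10 genes had at least 1 start site in the table. In the lines that follow, the 250 bases before the start site are given 5′ to 3′ on the strand of the gene, and capitals mark the fixed letters of a match.
HSPA5, chr9:125241344-125241593 (minus strand): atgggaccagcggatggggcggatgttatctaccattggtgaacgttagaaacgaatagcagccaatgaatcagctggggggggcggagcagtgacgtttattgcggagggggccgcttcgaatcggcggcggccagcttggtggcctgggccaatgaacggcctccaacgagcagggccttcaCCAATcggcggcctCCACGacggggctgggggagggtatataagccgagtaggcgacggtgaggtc
SDF2L1, chr22:21642052-21642301 (plus strand): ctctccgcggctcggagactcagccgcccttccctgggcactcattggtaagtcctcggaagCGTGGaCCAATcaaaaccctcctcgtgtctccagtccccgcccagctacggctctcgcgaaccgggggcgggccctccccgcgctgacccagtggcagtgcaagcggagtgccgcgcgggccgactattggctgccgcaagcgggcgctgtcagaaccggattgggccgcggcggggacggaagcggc
XBP1, chr22:28800570-28800819 (minus strand): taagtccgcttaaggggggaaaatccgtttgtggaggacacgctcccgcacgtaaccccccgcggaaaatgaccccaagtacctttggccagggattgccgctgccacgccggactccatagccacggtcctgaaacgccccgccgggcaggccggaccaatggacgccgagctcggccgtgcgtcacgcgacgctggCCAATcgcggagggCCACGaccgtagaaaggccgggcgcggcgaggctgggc
ASNS, chr7:97872409-97872658 (minus strand): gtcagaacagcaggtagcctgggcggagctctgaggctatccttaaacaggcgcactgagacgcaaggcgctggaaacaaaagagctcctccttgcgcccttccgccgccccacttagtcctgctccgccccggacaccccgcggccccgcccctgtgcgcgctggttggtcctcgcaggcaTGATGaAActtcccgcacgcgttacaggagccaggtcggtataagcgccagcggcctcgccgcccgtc
The element of HSPA5 lay at bases -66 to -48 from the start site and that of XBP1 at -52 to -34. SDF2L1 held the second form on the opposite strand at -188 to -178. XBP1 and ASNS each have another start site in the table whose window held no match, and the composite element of ASNS lay at -68 to -61. HERPUD1, which had no probe, held the second form at -117 to -107 and the composite element on the opposite strand at -176 to -169. No match to any of the 3 was found in these windows of ATF4, DDIT3, DDIT4, PPP1R15A or TRIB3. A match describes the letters of the sequence and does not show that a factor was bound.

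HSPA5 encodes BiP, the main chaperone of the ER lumen, and rose at 3 h in both lines. It read 9.17 and 8.80 in THP-1 medium, 9.68 and 9.48 after 1 h, and 10.13 and 10.01 after 3 h. For BEAS-2B the levels were 8.95 and 8.69 in medium, 9.02 and 9.23 after 1 h, and 9.91 and 9.81 after 3 h. Both dust groups lay above medium in each line, with the 3 h arrays above the 1 h arrays. At 3 h it rose 2.13-fold in THP-1 (1.09 ± 0.17, adjusted p = 0.000411) and 2.06-fold in BEAS-2B (1.04 ± 0.17, adjusted p = 0.00585). The THP-1 call held without any single array, and the BEAS-2B call ended without medium replicate 2 (adjusted p = 0.0711). At 1 h the changes were 0.59 ± 0.17 log2 in THP-1 (adjusted p = 0.144) and 0.30 ± 0.17 in BEAS-2B (adjusted p = 0.982).

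SDF2L1, an ER protein that works with BiP and its cochaperones, moved less and in the same order. It read 10.64 and 10.53 in THP-1 medium, 10.97 and 11.00 after 1 h, and 11.15 and 11.04 after 3 h. Levels in BEAS-2B were 10.67 and 10.64 in medium, 10.62 and 10.92 after 1 h, and 11.25 and 11.46 after 3 h. Arrays at 3 h lay above all medium and 1 h arrays of their line. At 3 h it rose 1.43-fold in THP-1 (0.51 ± 0.14, adjusted p = 0.014) and 1.62-fold in BEAS-2B (0.70 ± 0.14, adjusted p = 0.0199). The THP-1 call ended without medium replicate 2 or 3 h replicate 1 (highest adjusted p 0.0686). Scaling by the median ended it as well, at a change of 0.33 log2 (adjusted p = 0.116). The BEAS-2B call ended without either medium array or 3 h replicate 2 (adjusted p up to 0.142).

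XBP1, the transcription factor whose mRNA IRE1 splices, was measured by 2 probes that gave like values. ILMN_1809433 read 11.24 and 11.44 in THP-1 medium, 12.14 and 12.25 after 1 h, and 12.37 and 11.78 after 3 h. BEAS-2B arrays stood at 10.30 and 10.57 in medium, 10.96 and 11.27 after 1 h, and 11.56 and 10.93 after 3 h. All dust arrays lay above the medium arrays of their line, and the 1 h and 3 h groups overlapped in both lines. The changes in THP-1 were 0.85 ± 0.24 log2 at 1 h (adjusted p = 0.152) and 0.74 ± 0.24 at 3 h, a 1.67-fold rise that passed (adjusted p = 0.0305). In BEAS-2B they were 0.68 ± 0.24 at 1 h (adjusted p = 0.507) and 0.81 ± 0.24 at 3 h (adjusted p = 0.0847). The THP-1 call at 3 h ended without either medium array or 3 h replicate 1 (adjusted p up to 0.221). The annotation ties ILMN_1809433 to NM_005080 and ILMN_2365465 to NM_001079539; probe sequences were not used here, so these signals were not read as unspliced and spliced forms. On ILMN_2365465 the changes were 1.00 and 0.79 log2 in THP-1 and 0.66 and 0.77 log2 in BEAS-2B at 1 and 3 h.

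**Figure D3:**
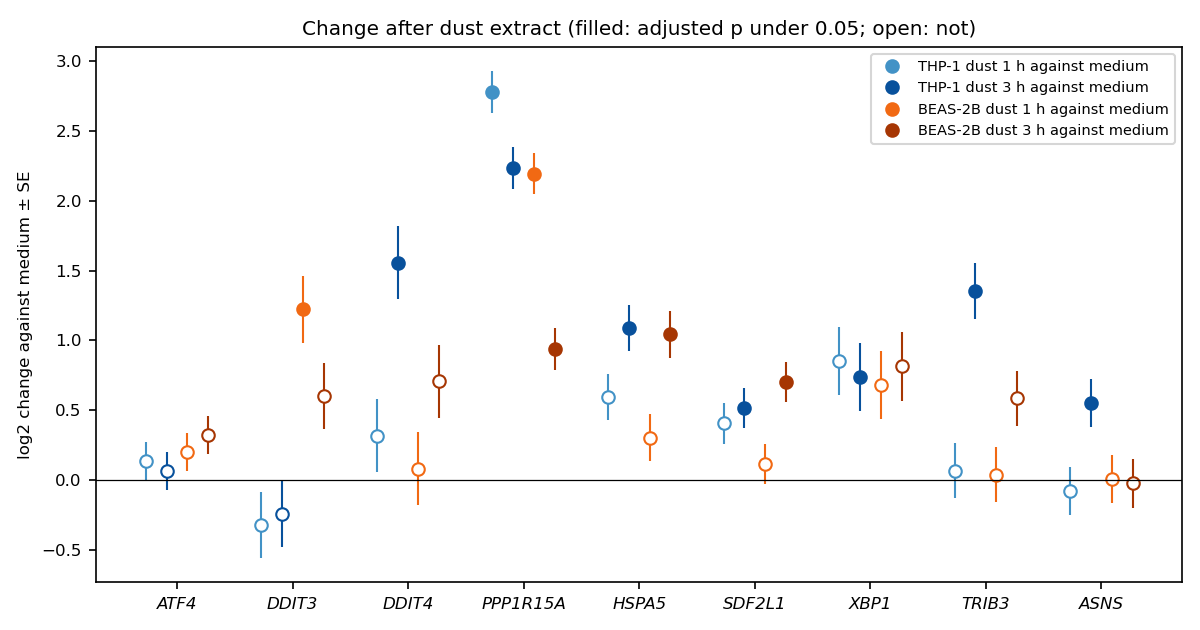
Log2 change against medium ± SE (n = 2 arrays a group) of the 9 measured genes after 1 or 3 h of dust extract in each line; filled points had an adjusted p under 0.05. PPP1R15A ran from 2.78 in THP-1 at 1 h to 0.94 in BEAS-2B at 3 h, and HSPA5 stood at 1.09 and 1.04 at 3 h in the 2 lines.

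The next comparison set 3 h against 1 h of dust within each line, and these tests share the dust arrays but not the medium arrays with those above. In THP-1, 4 of 9 members were higher at 3 h, beside 16.8% of all tested, and 1 was lower, beside 22.6%. TRIB3 was 2.44-fold higher (1.29 ± 0.20, adjusted p = 0.000563) and DDIT4 2.36-fold higher (1.24 ± 0.26, adjusted p = 0.00374), and both calls held without any single array. ASNS was 1.55-fold higher (0.63 ± 0.17, adjusted p = 0.0152) and HSPA5 1.41-fold higher (0.49 ± 0.17, adjusted p = 0.0383). PPP1R15A was the lower one, 1.46-fold (-0.54 ± 0.15, adjusted p = 0.0144). For HSPA5 the call was lost when any 1 of the 4 arrays of these groups was left out (highest adjusted p 0.194). The ASNS call ended without either 1 h array or 3 h replicate 2 (up to 0.0934), and that of PPP1R15A without 1 h replicate 1 or 3 h replicate 2 (up to 0.1). Under median scaling HSPA5 and ASNS no longer passed (adjusted p = 0.206 and 0.314), and HSPA5 passed neither with each line on its own (adjusted p = 0.0779) nor with no filter on dim probes (adjusted p = 0.0602).

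In BEAS-2B, PPP1R15A was 2.39-fold lower at 3 h than at 1 h (-1.25 ± 0.15, adjusted p = 0.00193), the 1 member of 9 that was lower, beside 1.31% of all tested. This call held without any single array. HSPA5 was 1.67-fold higher (0.74 ± 0.17, adjusted p = 0.0465), the 1 member that was higher, beside 1.41%. It no longer passed in 10 of the 12 fits with 1 array left out, those without any array other than the 2 THP-1 medium arrays (adjusted p up to 0.334). SDF2L1 was at 0.59 ± 0.14 log2 (adjusted p = 0.0658), TRIB3 at 0.55 ± 0.20 (adjusted p = 0.209), DDIT4 at 0.63 ± 0.26 (adjusted p = 0.279) and DDIT3 at -0.62 ± 0.24 (adjusted p = 0.233). In both lines, then, PPP1R15A was the member that stood lower at 3 h than at 1 h and passed, and HSPA5 stood higher.

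Whether the dust effect differed between the lines was tested as the difference BEAS-2B minus THP-1, which is one of line and dose together. At 1 h none of the 9 members passed in limma, beside 0.568% of all tested, and 2 had an unadjusted p under 0.05. These were DDIT3, at 1.54 ± 0.34 log2 (adjusted p = 0.11), and PPP1R15A, at -0.58 ± 0.21 (adjusted p = 0.563). With a term for replicate number added to the fit DDIT3 passed (limma, adjusted p = 0.0407), though the labels do not say that a number pairs samples. At 3 h PPP1R15A passed, as the 1 member of 9 that was lower, beside 11.7% of all tested, and none was higher, beside 14.8%. Its rise was smaller in BEAS-2B (-1.29 ± 0.21 log2, adjusted p = 0.00159), a call that held without any single array. For DDIT3 the difference was 0.85 ± 0.34 log2 (adjusted p = 0.0894), and under median scaling it passed, at 1.21 log2 (adjusted p = 0.0164). With the term for replicate number it passed too (limma, adjusted p = 0.0338). The difference was -0.77 ± 0.28 for TRIB3 (adjusted p = 0.069), -0.85 ± 0.37 for DDIT4 (adjusted p = 0.12) and -0.58 ± 0.25 for ASNS (adjusted p = 0.114). The dimmer ASNS probe gave the opposite sign, 0.27 ± 0.25 log2 (adjusted p = 0.472). For HSPA5 the difference was -0.05 ± 0.24 log2, with a 95% interval from -0.57 to 0.48, so a difference of up to these sizes could not be told from 0.

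Between the lines in medium, 3 of 9 members were higher in BEAS-2B, beside 32.2% of all tested, and 2 were lower, beside 30.1%. DDIT3 was 2.57-fold lower in BEAS-2B (-1.36 ± 0.24, adjusted p = 0.000519) and XBP1 1.87-fold lower (-0.91 ± 0.24, adjusted p = 0.00792). ASNS was 1.77-fold higher on its brighter probe (0.82 ± 0.17, adjusted p = 0.00189), while its dimmer probe gave 0.09 ± 0.18 log2 (adjusted p = 0.696). DDIT4 was 1.74-fold higher (0.80 ± 0.26, adjusted p = 0.0209) and PPP1R15A 1.34-fold higher (0.42 ± 0.15, adjusted p = 0.0304). ATF4 stood 0.34 ± 0.14 log2 higher on its brightest probe, with arrays that did not overlap, and did not pass (adjusted p = 0.0502). It passed in 5 of 9 other settings, and its other probes gave 0.39 and 0.02 log2. The DDIT3 call, and that of the brighter ASNS probe, held without any single array. The PPP1R15A call ended without any 1 of the 4 medium arrays (adjusted p up to 0.131), that of DDIT4 without either THP-1 medium array or BEAS-2B medium replicate 1 (up to 0.108), and that of XBP1 without BEAS-2B medium replicate 1 (0.0605). The DDIT3 mean after 1 h of dust in BEAS-2B, 8.53, overlapped in its arrays with that of THP-1 in medium, 8.67.

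The other genes of the pathway were followed in 4 lists, and 69 of their 79 genes were measured. These lists too were chosen with earlier results of these data known, so their shares are a description. The first holds the stress sensors and the genes that act on eIF2. Of its 11 measured genes, none passed in limma in THP-1 at 1 h, where 1.26% of all tested rose and 0.387% fell. None passed in BEAS-2B at 1 h, where 1.1% rose and 0.0775% fell, or at 3 h, where 3.26% rose and 2.21% fell. With shares this low, none of 11 does not set these genes apart from all tested. In that order 0, 0 and 2 of them had an unadjusted p under 0.05, a share not worked out for all tested. In THP-1 at 3 h 4 (36.4%) rose and 3 (27.3%) fell, beside 19.1% and 26.5% of all tested, with a median of 0.09 log2. PPP1R15B, the constitutive relative of PPP1R15A that also brings protein phosphatase 1 to eIF2, read 6.04 and 6.25 in THP-1 medium and 7.50 and 7.54 after 3 h, a 2.59-fold rise (1.37 ± 0.19, adjusted p = 0.000198). EIF2AK3, the gene of PERK, was not well above background in THP-1 medium and rose at least 1.83-fold (1.07 ± 0.25, adjusted p = 0.00545). ATF6 rose 1.75-fold (0.81 ± 0.16, adjusted p = 0.00228). EIF2AK1, the eIF2 kinase that senses heme, fell 2.30-fold (-1.20 ± 0.20, adjusted p = 0.000718), the adaptor gene NCK1 fell 1.76-fold, and MBTPS1, the protease that cleaves ATF6, fell as well (-0.58 ± 0.15, adjusted p = 0.00805). The change of ATF6 was lower in BEAS-2B than in THP-1 at 3 h (-0.91 ± 0.23, adjusted p = 0.0151) and that of PPP1R15B likewise (-0.91 ± 0.27, adjusted p = 0.0297).

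The second list holds other genes that ATF4 is known to induce, of which 22 were measured. After 3 h in THP-1, 11 of them (50%) rose, beside 19.1% of all tested, while 6 (27.3%) fell, near the 26.5% of all tested, with a median of 0.37 log2. SLC7A11, the cystine importer, was not well above background in THP-1 medium, at 4.65 and 4.44, read 7.84 and 7.42 after 3 h, and rose at least 3.86-fold (3.08 ± 0.24, adjusted p = 4.95e-06). SLC7A5, an importer of large neutral amino acids, read 8.59 and 9.42 in medium and 11.99 and 11.88 after 3 h, a 7.63-fold rise (2.93 ± 0.24, adjusted p = 6.99e-06). JDP2, a leucine zipper factor that pairs with JUN, rose 6.88-fold (2.78 ± 0.16). In the other direction, VLDLR, a lipoprotein receptor, fell 4.97-fold (-2.31 ± 0.19), SLC38A2, a carrier of small neutral amino acids, fell 3.23-fold (-1.69 ± 0.30), and the stress protein gene NUPR1 fell at least 2.45-fold.

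In BEAS-2B at 3 h 3 of the 22 ATF4-induced genes (13.6%) rose and 1 (4.55%) fell, beside 3.26% and 2.21% of all tested, with a median of -0.10 log2. At 1 h 2 (9.09%) rose there, beside 1.1% of all tested. GDF15, a secreted stress cytokine, read 5.57 and 5.67 in BEAS-2B medium, where 1 of the 2 arrays was not well above background, 7.01 and 6.58 after 1 h, and 6.76 and 7.16 after 3 h. It rose 2.26-fold at 1 h (1.17 ± 0.18, adjusted p = 0.00917) and 2.53-fold at 3 h (1.34 ± 0.18, adjusted p = 0.00217), folds that are not exact because of the dim array. In THP-1 it was not well above background in any group. VEGFA, which drives vessel growth, rose 1.84-fold at 3 h (0.88 ± 0.13) and MTHFD2, an enzyme of mitochondrial folate metabolism, 1.48-fold (0.57 ± 0.14, adjusted p = 0.0479). CTH, of cysteine synthesis, was not well above background after 3 h and fell at least 1.09-fold (-0.62 ± 0.14, adjusted p = 0.0297). The dust effect at 3 h was lower in BEAS-2B than in THP-1 for SLC7A5 (-3.32 ± 0.35 log2, adjusted p = 0.000104) and JDP2 (-3.31 ± 0.23, adjusted p = 8.74e-06) and higher for GDF15 (1.30 ± 0.25, adjusted p = 0.0042).

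At 1 h 3 of the 22 (13.6%) rose in THP-1, beside 1.26% of all tested. ATF3, a factor of the early stress response, read 6.38 and 6.58 in medium and 9.14 and 9.73 after 1 h, a 7.76-fold rise (2.96 ± 0.35, adjusted p = 0.00125). VEGFA rose 1.97-fold (0.98 ± 0.13) and ATF5, a factor related to ATF4, 1.83-fold (0.87 ± 0.16, adjusted p = 0.0256). In BEAS-2B at 1 h ATF3 read 11.15 and 11.25 against 7.96 and 7.90 in medium, a 9.63-fold rise (3.27 ± 0.35, adjusted p = 0.00105). At 3 h in BEAS-2B ATF3 was at 0.69 ± 0.35 log2 (adjusted p = 0.302). In THP-1 at 3 h it read 8.82 and 7.95, a 3.74-fold rise (1.90 ± 0.35, adjusted p = 0.00138). ATF3 had its highest arrays at 1 h in both lines, as PPP1R15A had.

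The third list holds other chaperones and folding enzymes of the ER, of which 18 were measured. None passed in limma at 1 h in either line, where 1.26% of all tested rose in THP-1 and 1.1% in BEAS-2B. With shares this low, none of 18 does not set these genes apart from all tested. At an unadjusted p under 0.05 were 3 of them in THP-1 and 0 in BEAS-2B, a share not worked out for all tested. At 3 h 10 (55.6%) rose and 1 (5.56%) fell in THP-1, beside 19.1% and 26.5% of all tested, with a median of 0.44 log2. The same list had 3 rises (16.7%) in BEAS-2B at 3 h, beside 3.26% of all tested, with a median of 0.16 log2. In THP-1, DNAJB9, a cochaperone of BiP, rose 2.46-fold (1.30 ± 0.26, adjusted p = 0.00203), DNAJC3, another such cochaperone, 1.92-fold (0.94 ± 0.16) and PPIB, an ER prolyl isomerase, 1.91-fold (0.94 ± 0.28, adjusted p = 0.0176), while P4HB, a disulfide isomerase, fell 1.31-fold (-0.39 ± 0.15, adjusted p = 0.0482). In BEAS-2B, HYOU1, an ER chaperone of the HSP70 class, read 7.40 and 7.31 in medium and 8.15 and 8.03 after 3 h, a 1.67-fold rise (0.74 ± 0.15, adjusted p = 0.016). MANF, a secreted ER stress protein, rose 1.55-fold (0.64 ± 0.15, adjusted p = 0.0315), and DNAJC3, not well above background in medium, rose at least 1.52-fold (0.74 ± 0.16, adjusted p = 0.0253). DNAJC3, HYOU1 and MANF, the 3 that rose in BEAS-2B at 3 h, rose in THP-1 at 3 h too. Under median scaling 4 of the 18 rose in THP-1 at 3 h and none fell, beside 1650 rises and 6046 falls among all 15489 tested.

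The fourth list holds genes of ER degradation and transport, of which 18 were measured. After 3 h in THP-1, 3 of them (16.7%) rose and 4 (22.2%) fell, shares near the 19.1% and 26.5% of all tested, with a median of 0.03 log2. For BEAS-2B at 3 h 1 (5.56%) fell, beside 2.21% of all tested. SEC61B, of the translocation channel, rose 1.71-fold in THP-1 (0.77 ± 0.15, adjusted p = 0.00159), SELENOK, an ER membrane selenoprotein, 1.47-fold, and DERL2, of the export of misfolded proteins, 1.38-fold (0.46 ± 0.13, adjusted p = 0.0133). Under median scaling 1 of the 18 rose and 6 fell there, beside 1650 rises and 6046 falls among all 15489 tested. DERL2 turned to -0.03 log2 under that scaling (adjusted p = 0.892). CREB3L2, an ER-bound transcription factor, fell 2.15-fold (-1.10 ± 0.15), the retrieval receptor KDELR3 1.74-fold and EDEM2, of glycoprotein disposal, 1.43-fold (adjusted p = 0.0418). In BEAS-2B at 3 h WFS1, an ER membrane protein of calcium balance, read 8.96 and 8.90 in medium and 7.75 and 8.12 after dust, a 1.99-fold fall (-0.99 ± 0.18, adjusted p = 0.0102). The fits with 1 array left out covered 35 calls against medium, up to 3 rises and 3 falls a list and comparison. Not covered were ATF3, HYOU1 and MANF in THP-1 at 3 h, and the differences between lines given for pathway genes. Of the 35 calls, 15 ended in at least 1 such fit. In THP-1 at 3 h these were PPIB, P4HB, SELENOK, DERL2, KDELR3 and EDEM2, at 1 h ATF5, and in BEAS-2B GDF15 at 1 h and VEGFA, MTHFD2, CTH, DNAJC3, HYOU1, MANF and WFS1 at 3 h. The adjusted p without 1 array ranged up to 0.286 among them. All of these 15 but VEGFA, MANF and WFS1, 12 calls, also ended under at least 1 other setting. Among them were PPIB and SELENOK under median scaling (adjusted p = 0.24 and 0.354), P4HB and MTHFD2 in 3 settings each (up to 0.128 and 0.0733) and CTH in 4 settings, background correction and offset among them (up to 0.171).

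**Figure D4:**
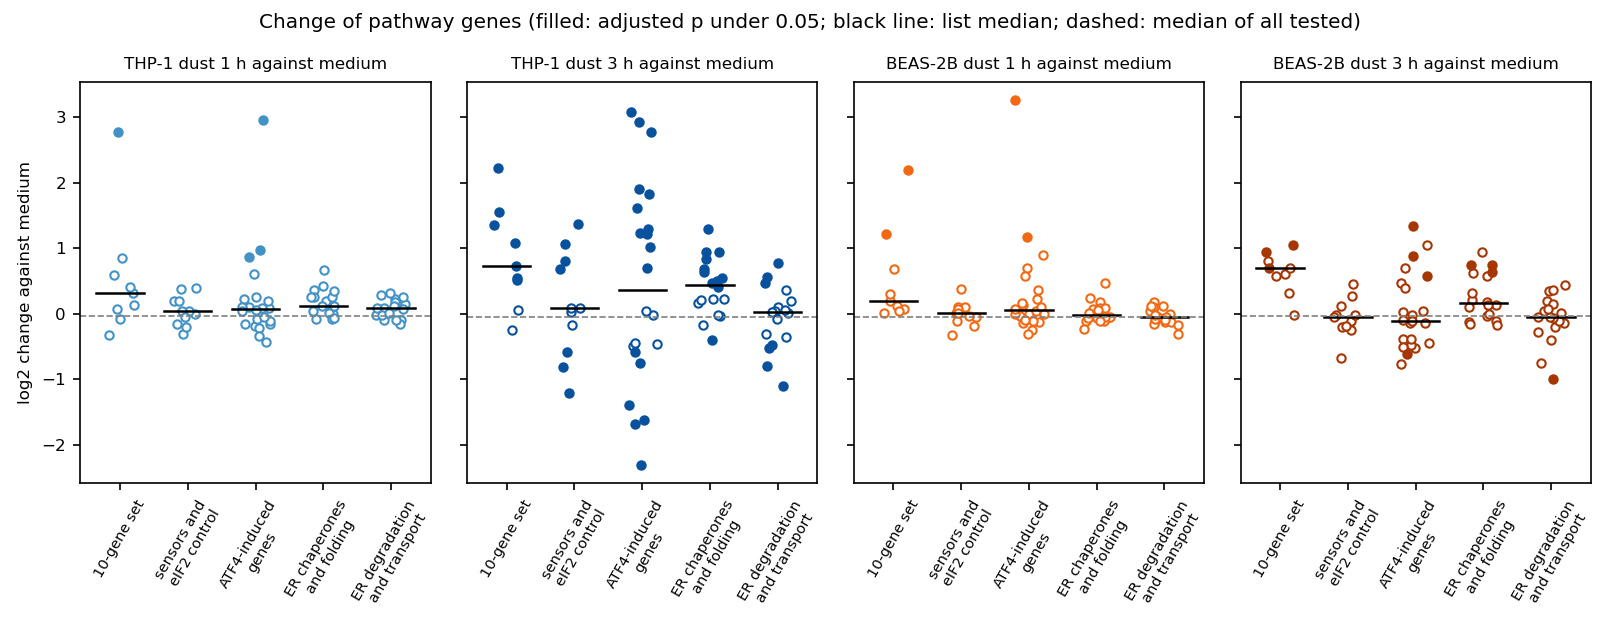
Log2 change against medium of the 9 measured genes of the 10-gene set and of the other pathway genes by list, 1 point a gene; filled points had an adjusted p under 0.05, black lines are list medians and dashed lines the median of all genes tested. In THP-1 at 3 h the ER chaperones lay mostly above 0, with a median of 0.44, while the ATF4-induced genes spread from -2.31 for VLDLR to a fitted 3.08 for SLC7A11, whose medium level was not well above background.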

How the data were processed

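RNA of 12 samples was hybridised to 12 arrays of an Illumina BeadChip, 2 for each of 6 groups of line and time. The deposited table holds, per the file headers, a mean signal intensity per probe without scaling between arrays, its standard error over beads, the count of beads and a detection p-value. Per the submitters' processing notes, GenomeStudio 2011.1 was used. A second deposited table of intensity values had column medians from 80.57 to 80.64, and its sorted values, averaged over columns, lay within 0.155% of those of the first, close to what quantile normalization gives.

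Signals were background-corrected, quantile-normalized and put on a log2 scale with limma 3.58.1 (neqc, offset 16) in R 4.3.3. Kept were probes with a detection p under 0.01 for both replicates of any group (19045 of 47320), and the brightest probe per gene was used, which gave 15489 features, 11422 named genes and 4067 unnamed probes. Means of the 6 groups were fitted with lmFit and eBayes, with Benjamini-Hochberg adjustment over all features and calls at an adjusted p under 0.05. Tests of single probes were fitted over all kept probes. "At least" folds take as the level of a dim probe the lowest signal well above background on each array, where the probe's own is lower. The number of arrays limits the precision. The fit was also run on simulated log2 levels with known changes added, which leaves the normalization untested.

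The members and lists were chosen with earlier results of these data known. All members were to be given, and from each list, per comparison with medium, up to 3 of the largest rises and falls among genes that passed and whose arrays did not overlap. Alternatives covered the background correction, offset, scaling, source of values, filter, choice of probe, variance model, replicate block and each array left out.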

Additional observations from a re-analysis of the deposited data

Results flagged for a closer look

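For PPP1R15A, the phosphatase subunit that acts on eIF2, the effect of dust at 3 h differed between the lines by -1.29 log2, BEAS-2B minus THP-1 (limma, adjusted p = 0.00159). The rise was 4.70-fold in THP-1 and 1.92-fold in BEAS-2B, and it was marked for a closer look because the test of the difference itself passed. The THP-1 arrays read 12.24 and 11.88 after dust against 9.83 and 9.82 in medium, and the BEAS-2B arrays 11.22 and 11.15 against 10.28 and 10.21. Over the fits with 1 array left out the difference lay between -1.48 and -1.11 log2. The dose was 0.1% in THP-1 and 0.25% in BEAS-2B, so line and dose cannot be told apart.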

How the results depend on the processing

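Of the 81 member results (9 genes in 9 comparisons), 75 stayed on the same side of the threshold under median scaling and 76 with no filter on dim probes, the settings that changed most calls of those run on all 81. The sign turned for 6 results under median scaling and for 6 with the mean of a gene's probes, none of which passed in either fit. The members that passed for the dust effect at 3 h between lines numbered 2 in place of 1 with no background correction, with an offset of 50, with the authors' value table and with a variance trend (TRIB3 gained), and under median scaling (DDIT3 gained). Median scaling gave 3 members in place of 5 for THP-1 3 h against 1 h. In BEAS-2B at 1 h 1 member passed in place of 2 with each line on its own and with no filter (DDIT3 lost, adjusted p = 0.0927 and 0.102), and 1 in place of 2 passed for BEAS-2B 3 h against 1 h with no filter. With no filter XBP1 in THP-1 at 3 h was lost too (adjusted p = 0.0678). The cause was not tested in these cases, beyond the larger number of features with no filter (37253). With 1 array left out, the members that passed against medium numbered 1 to 1 in THP-1 at 1 h, 5 to 7 at 3 h, 1 to 2 in BEAS-2B at 1 h and 0 to 4 at 3 h. They numbered 2 to 5 and 1 to 2 for 3 h against 1 h in THP-1 and BEAS-2B, 0 to 0 and 1 to 2 for the difference between lines at 1 and 3 h, and 2 to 5 between the lines in medium. A group left with 1 array is assumed to vary like the others. DERL2 in THP-1 at 3 h turned from 0.46 to -0.0282 log2 under median scaling. That scaling gave 1650 rises and 6046 falls over all genes there, against 2966 and 4101, and 475 and 618 in BEAS-2B at 3 h, against 505 and 342. The replicate numbers were shared by the groups, but with 2 numbers they were not taken to pair the samples: the replicate differences of 2 groups correlated at 0.34, 0.29 and 0.24 among the THP-1 groups and at 0.20, 0.01 and -0.10 among the BEAS-2B groups. With the replicate block, 1 member in place of 0 passed for the dust effect between lines at 1 h and 2 in place of 1 at 3 h (DDIT3, adjusted p = 0.0407 and 0.0338), and no other member call changed. Crossing the numbers of BEAS-2B at 3 h, chosen after seeing the data as was the fit of every probe, gave 249 rises and 242 falls for 3 h against 1 h over all genes, against 219 and 203 without a block.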

Other observations

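Among the named genes outside the set, the one whose level followed PPP1R15A most closely over the 12 arrays, after the mean of each line was taken off, was NFKBIZ (r = 0.99), a regulator of NF-kB target genes. The same measure gave NOP16 (r = 0.98) for HSPA5, GAR1 (r = 0.95) for SDF2L1 and POLR1C (r = 0.98) for TRIB3. NOP16 and GAR1 are known from ribosome assembly, and POLR1C is a subunit of RNA polymerases I and III. For the others it gave GLIS3 (r = 0.97) for DDIT4, SAMD4B (r = 0.97) for ASNS, ANKRD1 (r = 0.92) for DDIT3, PLOD2 (r = 0.92) for ATF4 and F3 (r = 0.92) for XBP1. These are the highest among the tested named genes outside the set (11422 with the members included). They describe these arrays, which share a chip and the same 6 groups.

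Within the set, HSPA5 and SDF2L1 had an r of 0.93 by this measure, DDIT4 and TRIB3 of 0.87, DDIT4 and HSPA5 of 0.85, and PPP1R15A and XBP1 of 0.79. DDIT3 had no r above 0.31 with another member.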
